A study of Homo sapiens with 6 samples.

Results

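The genes described here are the cadherin superfamily members other than the desmosomal cadherins, measured by RNA sequencing in MDA-MB-231, an established line of triple-negative human breast cancer. They were chosen by name from the deposited table: every gene whose symbol starts with CDH or PCDH, together with the FAT, DCHS1, CELSR and CLSTN genes. The rule found 63 members among 15706 genes. They comprise 5 type I classical cadherins, 3 type II classical cadherins, 4 atypical cadherins, 5 FAT and Dachsous cadherins, 3 CELSR cadherins, 2 calsyntenins, 6 non-clustered protocadherins, 14 beta protocadherins and 21 gamma protocadherins. No alpha protocadherin was among the genes that the rule found. The study compared 3 control libraries, from wild-type cells labelled sgNT (non-targeting guide), with 3 libraries labelled as MLL3 knockout, from cells labelled sgMLL3. MLL3, with the approved symbol KMT2C, is a methyltransferase of histone H3 lysine 4 that acts mainly at enhancers. Both groups grew untreated in serum-containing DMEM. The labels number the libraries of each group 1 to 3 as biological replicates. Whether the numbers stand for separate guides is not stated, nor is clonal origin.

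Cadherins are transmembrane proteins whose extracellular domains bind calcium and pair with cadherins of a neighbouring cell. Classical cadherins hold adherens junctions together and are tied to actin through beta-catenin, p120-catenin and alpha-catenin; MDA-MB-231 is known as a mesenchymal line that lacks E-cadherin junctions. Clustered protocadherins are expressed from tandem arrays of alternative promoters, best known from neurons, where each cell uses its own choice of isoforms; most of these promoters share a conserved element built around the letters CGCT, and CTCF and cohesin are known to join chosen promoters to distant enhancers.

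The promoters of the clustered genes carried this family resemblance in their letters, which is why a few are shown. Promoter windows, 250 bases before to 50 after a start, were found for 47 of the 63 members in the RefSeq table on GRCh38.p14, all on the + strand of chromosome 5 for those printed next. The longest string present in at least 60% of the beta genes was GGTGGCGCTGCAGG, in 7 of 11, and it is in capitals in these stretches upstream of the start.
PCDHB10: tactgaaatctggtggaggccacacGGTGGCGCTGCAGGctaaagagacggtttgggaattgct
PCDHB12: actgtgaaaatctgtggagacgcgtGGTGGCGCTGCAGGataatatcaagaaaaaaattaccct
PCDHB13: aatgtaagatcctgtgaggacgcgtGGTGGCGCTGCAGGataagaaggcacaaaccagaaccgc
PCDHB4: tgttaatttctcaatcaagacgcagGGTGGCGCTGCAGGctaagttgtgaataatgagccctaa
They lie at chr5:141192285-141192348, chr5:141208629-141208692, chr5:141213851-141213914 and chr5:141121709-141121772. The shorter GGTGGCGCTGC stood in 10 of 11 beta genes, in 0 of 19 gamma genes and in 36 of all 35116 promoters (0.103%). For the gamma genes the longest such string was CGCTGTT, in 12 of 19 genes, in 0 of 11 beta genes and in 2.26% of all promoters.
PCDHGA1: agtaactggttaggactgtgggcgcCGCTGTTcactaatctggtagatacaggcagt
PCDHGA4: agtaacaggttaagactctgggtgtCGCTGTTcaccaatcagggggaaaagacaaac
PCDHGA10: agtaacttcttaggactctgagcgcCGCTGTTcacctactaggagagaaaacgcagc
PCDHGB2: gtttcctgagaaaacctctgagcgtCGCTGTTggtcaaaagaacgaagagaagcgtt
These lie at chr5:141330394-141330450, chr5:141354951-141355007, chr5:141412922-141412978 and chr5:141359912-141359968. All strings were searched on both strands, and the letters CGCT are common to the beta and the gamma string. A core of the CTCF motif, which overlaps the beta string in its letters GGCGCT, was searched on either strand. It was found in 2 of 59 member promoters (PCDHB7 and PCDHB9) and in 2.37% of all promoters. Both are beta genes, so the core was in 2 of 11 beta promoters (18.2%). It was in 0 of 24 gamma promoters and in 0 of 24 promoters of members outside the clusters. The core as searched also required an A directly before the beta string, which none of the beta stretches printed above has. The search therefore does not count most copies of that string.

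Across the 6 libraries, 41240265 to 49514464 reads fell in the listed genes, and every listed gene had at least 1 read in each library. Genes that lack reads in 1 or more libraries, also in a whole group, are therefore not covered here. Values are normalized read counts, that is, reads divided by 1 size factor per library. The 8 markers listed for MDA-MB-231, among them VIM, EGFR and CD44, were all present, with a summed normalized count of 219024 to 223565 in control and 209520 to 213187 in knockout libraries. Groups were tested with limma, a linear model fitted over all genes, on log2(value + 1); fold changes are knockout minus control on that scale, SE is the standard error of the fit, and p-values were adjusted over all genes tested. KMT2C had 1367, 1379 and 1255 normalized counts in the controls (always listed in the order of replicates 1, 2 and 3) and 1519, 1660 and 1339 in the libraries labelled knockout (log2 fold change 0.17, SE 0.10, limma adjusted p = 0.205), so its transcript count did not fall; counts over a whole gene do not read the edited sequence. Along the second principal component control replicate 1, with a score of 34.9, was separate from the other 5 libraries, whose scores were -15.1 to -2.03. Over all genes tested, the log2 fold change fell with the GC content of the transcript (Spearman rho -0.67 across 14618 genes, which are not independent replicates). The main results are therefore also given after a trend along GC content and transcript length had been removed from each library, called trend removal; values with no such mention are as deposited.

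Few of the cadherin superfamily genes tested differed between the groups. Of the 63 members, 50 had a mean of at least 10 and were tested, and 7 of those 50 passed an adjusted p of 0.05 in limma (14.0%), against 33.2% of all 14618 genes tested. FAT1, PCDH18, PCDH9 and PCDHGA1 were higher in knockout, where 18.9% of all genes were called higher, and CLSTN1, CELSR2 and CDH4 were lower, where 14.4% of all genes were called lower. PCDH9 reached the mean of 10 only through its knockout libraries, so its call is no support for a difference and the count without it is 6. The median log2 fold change was 0.04 over the 50 members and -0.02 over all genes tested. With a mean of at least 50, 6 of 32 members passed, against 38.2% of all such genes. Of these, PCDH18 and PCDHGA1 reached that mean only through their knockout libraries (control means 38.1 and 39.1). Their calls at this filter are therefore no support for a difference. In the authors' deposited table, 7 of the 37 members with an adjusted p-value passed 0.05, against 38.5% of all genes there; it calls CELSR1 in addition and gives no adjusted p for PCDH9. The counts with 1 library left out are given beside the share of all genes called in the same fit. Without control replicate 1, 7 members passed again, with PCDHB8 in place of PCDHGA1 (42.2% of all genes), and without knockout replicate 3, 6 did (33.7%). Without control replicate 2 there were 5 (25.2%), and without control replicate 3 there were 3, CLSTN1, CELSR2 and CELSR1, all lower (21.6%). Without knockout replicate 1 CLSTN1 alone passed (14.7%), and without knockout replicate 2 CLSTN1 and CELSR2 did (17.1%).

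After trend removal 2 of 50 members passed, CELSR2 and CDH11, both lower, against 10.0% of all genes (4.08% higher and 5.95% lower). The other 6 genes called above did not pass then. With the trend removed, 5 members passed without control replicate 1 (PCDH18 and PCDHB8 higher; CDH11, CELSR2 and CLSTN1 lower), against 24.7% of all genes. PCDHGA1 alone passed without control replicate 2 (5.01% of all genes) and CDH11 alone without control replicate 3 (6.07%). Without knockout replicate 1, 2 or 3, 0 members passed, where 2.60%, 2.84% and 4.14% of all genes did. Counted by whether the 3 knockout libraries lay wholly outside the 3 control libraries, 10 of 50 members did not overlap, against 46.3% of all genes. Those 10 were FAT1, FAT3, PCDH18, PCDH9, PCDHGA1 and PCDHGA10, higher in knockout (23.9% of all genes were), and CLSTN1, CELSR2, CDH24 and PCDH7, lower in knockout (22.4% of all genes were). PCDH9 is counted here although it was tested only through its high knockout libraries, so it is no support for a difference in this count either.

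**Figure D1:**
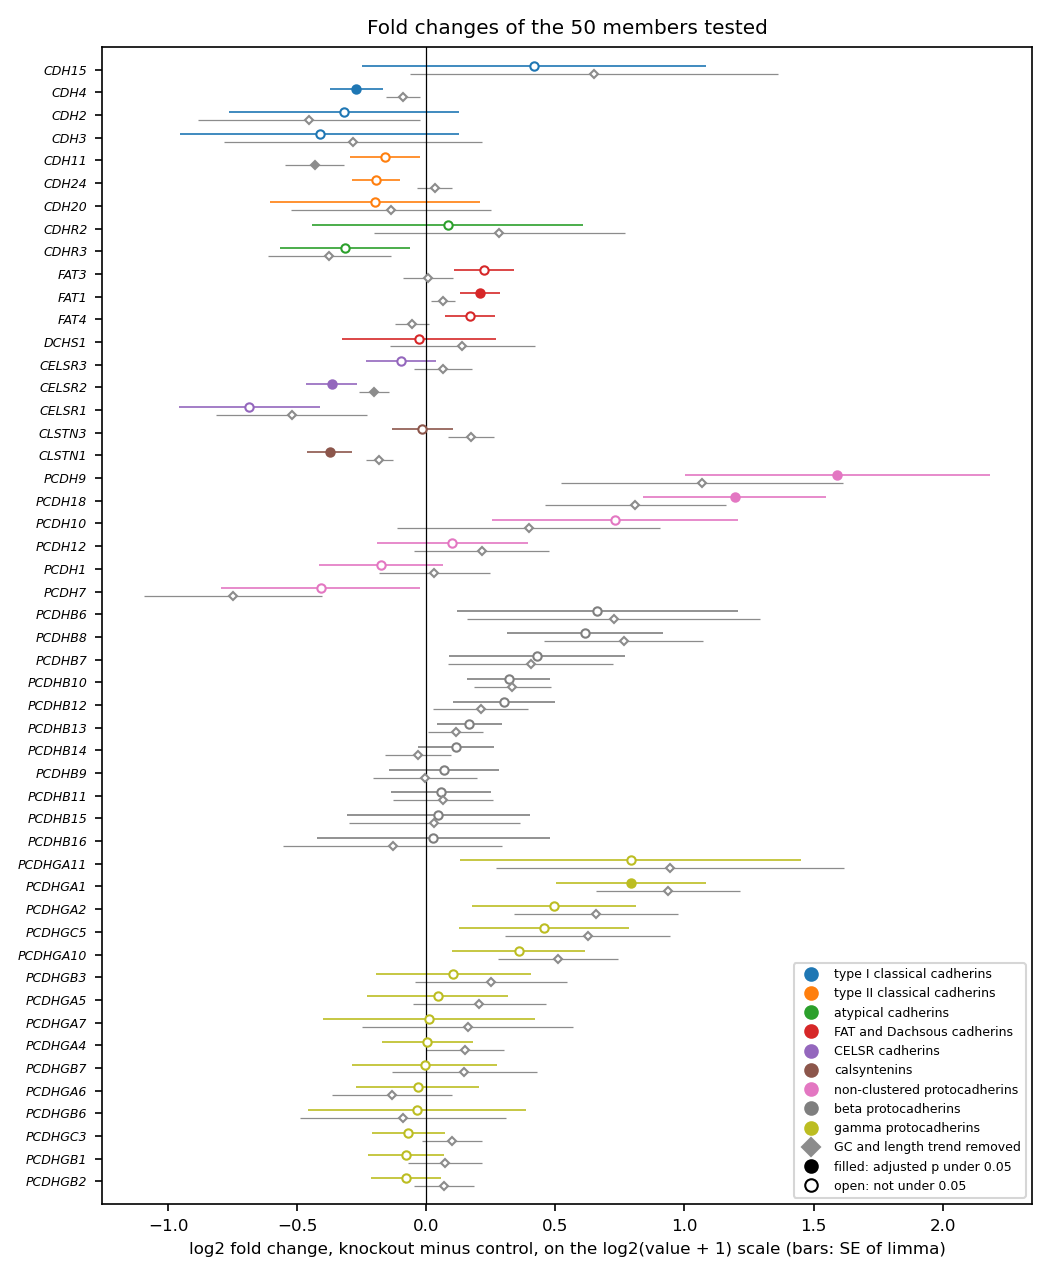
Log2 fold change, knockout minus control, of the 50 members tested (circles, coloured by subfamily) with the SE of limma as bars, and below each the value after trend removal (grey diamonds); filled symbols have an adjusted p under 0.05. Most symbols lie near 0, 7 circles are filled, and CDH11 and CELSR2 are the filled diamonds.

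The levels show which cadherins this line transcribes. Per kilobase of the longest transcript, averaged over the 6 libraries, CLSTN1 stood at 1844 normalized counts, FAT1 at 620, CDH24 at 427, CDH4 at 307, CELSR2 at 247 and PCDHGB2 at 193. CLSTN1, a calsyntenin that docks vesicle cargo to kinesin, therefore led by a wide margin. Among the type I cadherins CDH4 was the main one, and CDH1 (E-cadherin), CDH2 (N-cadherin) and CDH3 (P-cadherin) were all below 10 per kilobase. CDH24 and CDH4 did not overlap in any library pair on this scale, and the gamma genes ran from PCDHGB2 down to PCDHGB5 at 1.05 per kilobase.

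**Figure D2:**
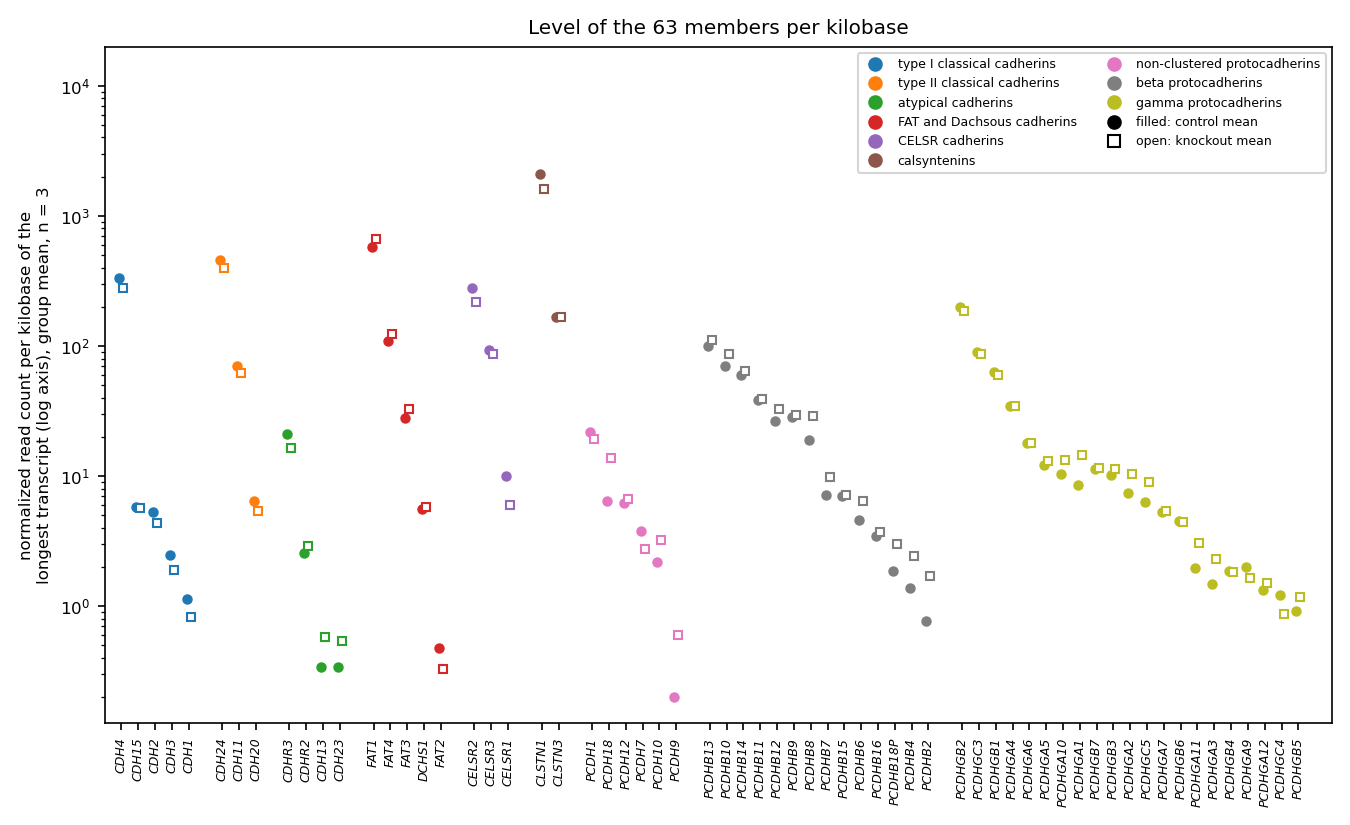
Normalized read count per kilobase of the longest transcript (log axis) of all 63 members, by subfamily, as group means of 3 libraries (filled circles, control; open squares, knockout). Levels span from CLSTN1, at 1844 per kilobase over all 6 libraries, to genes below 1, and the paired symbols of most genes lie close together.

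Type I classical cadherins, which carry the HAV motif and bind p120-catenin and beta-catenin, were represented mainly by CDH4, or R-cadherin (GRCh38 chr20:61252426-61940617). Its normalized counts were 2154, 2067 and 2317 in control and 1596, 1777 and 2070 in knockout. Knockout replicate 3 overlapped the control range by a narrow margin. CDH4 was lower in knockout by -0.27 on the log2 scale (SE 0.10, limma adjusted p = 0.0479), and after trend removal by -0.09 (adjusted p = 0.428); the transcript has 59.0% GC. The call was also lost without control replicate 2 (adjusted p = 0.0675), without control replicate 3 (0.141) and without knockout replicate 1 (0.243) or 2 (0.151).

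The cadherins most used to describe epithelial and mesenchymal states were scarcely transcribed. E-cadherin, CDH1 (chr16:68737225-68835548), had 5.39, 7.52 and 3.86 in control and 2.11, 4.43 and 5.51 in knockout, which are 2 to 7 reads per library, and it was below the level tested. N-cadherin, CDH2 (chr18:27950966-28177446), had 28.0, 24.7 and 15.5 in control and 28.5, 10.6 and 17.4 in knockout. The CDH2 groups overlapped (log2 fold change -0.32, SE 0.45, limma adjusted p = 0.613). P-cadherin, CDH3, had 10.8, 15.04 and 10.6 in control and 6.34, 14.2 and 7.34 in knockout, and the groups overlapped as well (-0.41, SE 0.54, adjusted p = 0.586). At these depths a change of E-cadherin was not detectable, and for CDH2 and CDH3 the SE exceeded the estimate. CDH15, the M-cadherin of muscle, ranged from 2.15 to 27.0 in control alone. The E-box CACCTG, the letters bound by the SNAI and ZEB repressors, was searched on both strands: it was in 10 of 59 member promoters (16.9%) and in 20.6% of all promoters. It was in 0 of the 2 promoters of CDH2 and in 1 of the 2 of CDH4, with its first base at -16 from that start. The stretches before both CDH4 starts lie inside the gene, at chr20:61499171-61499420 and chr20:61599511-61599760. The promoter at the outer end of CDH4 was therefore not searched, and no promoter window was found for CDH1.

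Type II cadherins lack the HAV motif. CDH24 had 1593, 1545 and 1714 in control and 1335, 1431 and 1472 in knockout, so that all knockout libraries were below all control libraries, yet it did not pass the test (log2 fold change -0.19, SE 0.09, limma adjusted p = 0.116) and stood at 0.03 after trend removal. CDH24 has 64.2% GC. CDH11, or OB-cadherin, a cadherin of osteoblasts and mesenchymal cells (chr16:64943753-65126112), passed only after trend removal. Its counts were 502, 526 and 412 in control and 387, 479 and 422 in knockout. These groups overlapped, and the difference did not pass as deposited (-0.16, SE 0.14, limma adjusted p = 0.38). After trend removal, that is, relative to genes of like GC content and length, CDH11, with 42.9% GC, was lower by -0.43 (SE 0.11, limma adjusted p = 0.0348). Leaving out libraries with the trend removed, it passed without control replicate 1 (adjusted p = 0.00869) or 3 (0.0378) and did not pass without control replicate 2 (0.126) or without any 1 knockout library (0.0771 to 0.167). CDH20 was low, at 24.8 ± 9.70 in control and 20.9 ± 4.93 in knockout (SD, n = 3).

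The atypical cadherins have no catenin-binding tail or belong to specialised cells. CDH13, or T-cadherin, which is held in the membrane by a lipid anchor, had 1 to 10 reads per library, and CDH23, part of the tip link of inner ear hair cells, had a mean of 3.76 in control and 6.02 in knockout. Neither reached the level tested. CDHR3, known as a receptor of a rhinovirus species, had 79.8 ± 20.2 in control and 63.1 ± 8.87 in knockout, and the difference did not pass (limma adjusted p = 0.349). CDHR2, a protein of intestinal microvilli, stood at 11.5 and 13.03.

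CLSTN1 was lower in knockout, and it was the member with the smallest adjusted p. It lies on the minus strand at chr1:9729026-9824526. Counts were 10010, 11154 and 11425 in control and 7476, 8516 and 9176 in knockout, with no overlap. The mean went from 10863 ± 751 to 8390 ± 857 (SD, n = 3), which is -0.38 on the log2 scale (SE 0.09, limma adjusted p = 0.00428). It remained below 0.05 when any 1 library was left out, at most 0.0410, without knockout replicate 1. After trend removal the difference was -0.18 (SE 0.05, limma adjusted p = 0.0501), just outside the threshold, with 59.1% GC in the transcript. CLSTN3, which organises inhibitory and excitatory synapses, did not differ beyond its spread, at 723 ± 69.6 and 715 ± 73.9 (adjusted p = 0.929).

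The CELSR cadherins are the mammalian counterparts of Flamingo, the cadherin that aligns cells in planar polarity. CELSR2 was lower in knockout; it lies on the plus strand at chr1:109250019-109275750. Its counts were 2726, 2878 and 3197 in control and 1989, 2393 and 2457 in knockout, with no overlap. The log2 fold change was -0.37 (SE 0.10, limma adjusted p = 0.0097), and -0.20 after trend removal (SE 0.06, limma adjusted p = 0.0474). It thus passed in both forms. Without knockout replicate 1 the adjusted p was 0.0789, and with the trend removed it passed only without control replicate 1 (0.122 to 0.202 without any other library). CELSR1 had 111, 159 and 73.4 in control and 61.3, 56.7 and 88.1 in knockout, which overlapped (-0.69, SE 0.27, limma adjusted p = 0.0602; -0.52 and 0.291 after trend removal); edgeR on reads recovered by undoing the size factors, which called 33.6% of all genes and 6 of 50 members, gave 0.0484, and the authors' deposited table gives 0.0382. CELSR3 stood at 1115 ± 248 and 1028 ± 104 and did not pass (adjusted p = 0.612).

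The stretches before the starts of CLSTN1 and CELSR2, the 2 called genes with the smallest adjusted p, are given for reference, 250 bases each from RefSeq on GRCh38.p14, with no letters marked because neither the E-box nor the CTCF core was found in them.
CLSTN1 (outermost start, minus strand, chr1:9824527-9824776): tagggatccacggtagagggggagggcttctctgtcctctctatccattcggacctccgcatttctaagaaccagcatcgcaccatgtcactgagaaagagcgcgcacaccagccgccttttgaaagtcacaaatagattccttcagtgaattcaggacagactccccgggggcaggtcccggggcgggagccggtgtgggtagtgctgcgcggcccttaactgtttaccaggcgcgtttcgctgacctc
CELSR2 (plus strand, chr1:109249289-109249538): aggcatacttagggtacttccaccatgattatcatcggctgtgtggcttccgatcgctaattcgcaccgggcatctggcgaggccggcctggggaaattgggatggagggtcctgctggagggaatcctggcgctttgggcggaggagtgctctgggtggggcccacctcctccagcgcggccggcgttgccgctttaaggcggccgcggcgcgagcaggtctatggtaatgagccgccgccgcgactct

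**Figure D3:**
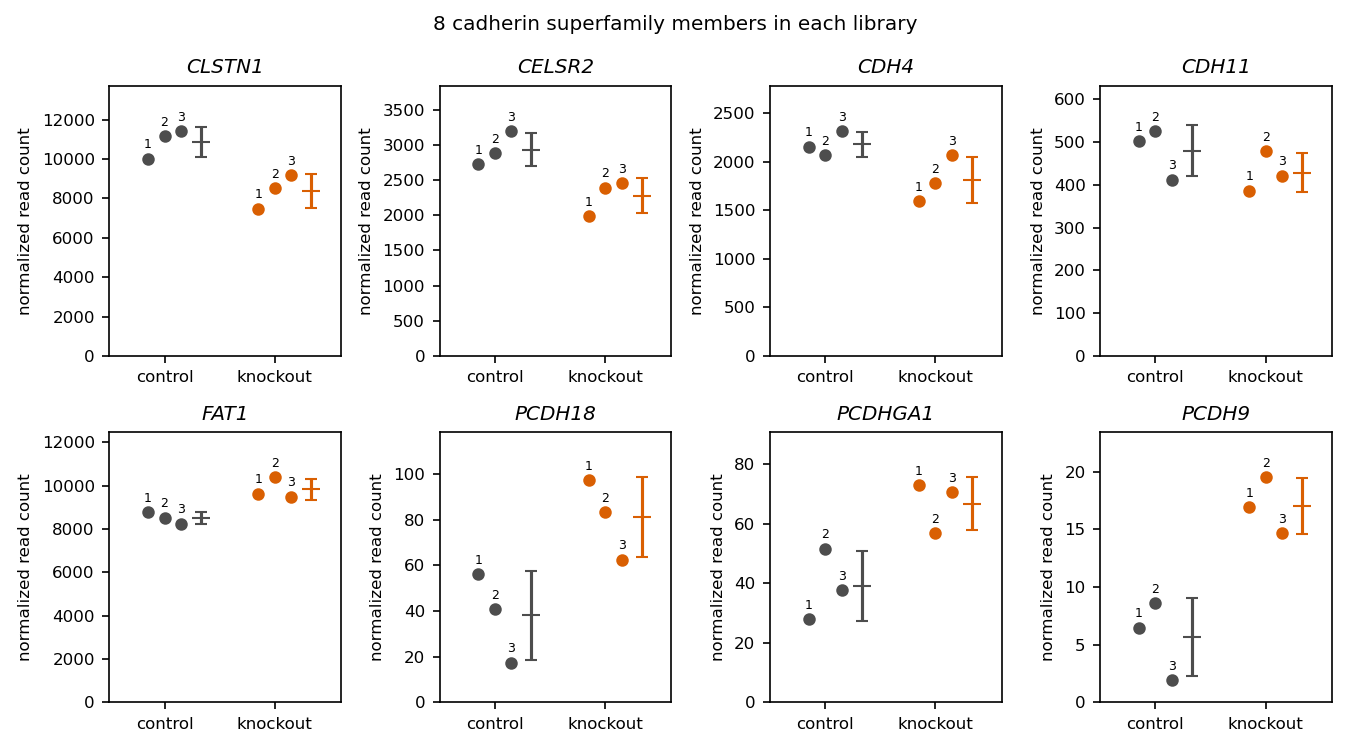
Normalized read count (linear axis from 0) of 8 members in each control (grey) and knockout (orange) library, numbered by replicate, with the group mean and SD (n = 3) beside the points. CLSTN1, CELSR2, FAT1, PCDH18, PCDHGA1 and PCDH9 show no overlap between groups, while CDH4 and CDH11 overlap.

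The FAT cadherins are giant proteins with long arrays of cadherin repeats; FAT4 is the receptor of the ligand DCHS1, and both feed into planar polarity and Hippo signalling. FAT1 (chr4:186587783-186726722), which also acts at actin-rich cell edges, was higher in knockout. Its counts were 8766, 8518 and 8243 in control and 9631, 10378 and 9492 in knockout, with no overlap. The log2 fold change was 0.21 (SE 0.08, limma adjusted p = 0.0446), and 0.06 after trend removal (adjusted p = 0.42), with 46.3% GC. FAT1 kept its call without control replicate 1 (adjusted p = 0.0178) or knockout replicate 3 (0.0461), and lost it without any other library; edgeR gave 0.0540. FAT3 and FAT4 had estimates of like size, 0.22 and 0.17, that did not pass (adjusted p = 0.142 and 0.181). After trend removal FAT3 stood at 0.01 and FAT4 at -0.06. DCHS1 was at 60.3 ± 6.81 and 62.4 ± 24.5 and FAT2 had a mean of 6.88 and 4.81, below the level tested.

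Of the 6 non-clustered protocadherins, which are expressed each from its own gene and are best known from brain wiring, 2 were called higher in knockout (18.9% of all genes were), 1 of them, PCDH9, with the limit given above. PCDH18 (chr4:137518918-137532494) had 56.0, 40.8 and 17.4 in control and 97.2, 83.3 and 62.4 in knockout, with no overlap. Control replicate 3 was lowest of all libraries. The log2 fold change was 1.19 (SE 0.35, limma adjusted p = 0.0164), and 0.81 after trend removal (SE 0.35, adjusted p = 0.173), with 40.1% GC. Without control replicate 3 the estimate was 0.72 (adjusted p = 0.0780), and without knockout replicate 1 or 2 the adjusted p was 0.0954 or 0.0501.

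PCDH9 (chr13:66302834-67230445) had 6.46, 8.59 and 1.93 in control and 16.9, 19.5 and 14.7 in knockout, with no overlap, on 2 to 22 reads per library. Its mean was 5.66 ± 3.40 in control and 17.0 ± 2.41 in knockout (SD, n = 3), so it was tested only because of the group in which it is high. Its log2 fold change was 1.59 (SE 0.59, limma adjusted p = 0.0458), and 1.07 after trend removal (adjusted p = 0.247). This transcript has the lowest GC content of the members, 34.3%. The call was lost without control replicate 3 or any 1 knockout library (adjusted p = 0.0773 to 0.178). The other 4 did not pass: PCDH10 at 18.5 and 27.4, PCDH12 at 40.6 and 43.7, PCDH1 at 104 and 92.0, and PCDH7 at 25.4 and 18.7 in control and knockout. PCDH7 was lower in every knockout library than in any control library (-0.41, limma adjusted p = 0.435), also after trend removal in its estimate (-0.75, adjusted p = 0.197).

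The beta protocadherins are mostly single-exon genes on chromosome 5, and 0 of the 11 tested passed in limma, in edgeR or in DESeq2 (33.2%, 33.6% and 35.7% of all genes did); 0 of 11 also had an unadjusted limma p under 0.05. All 11 estimates were above 0, from 0.03 to 0.66, and 8 of 11 were above 0 after trend removal; these genes share a cluster and similar sequences and are not independent of each other. Summed over the 14 genes, normalized counts were 1666, 1569 and 1451 in control and 1707, 1928 and 1729 in knockout. PCDHB13 was the most abundant, at 503 ± 61.8 in control and 562 ± 41.6 in knockout (log2 fold change 0.17, limma adjusted p = 0.324). PCDHB14 stood at 289 ± 43.3 and 312 ± 23.4. PCDHB10 stood at 230 ± 39.3 and 285 ± 33.5 (0.32, adjusted p = 0.135). PCDHB8, at 72.2, 37.6 and 44.4 in control and 51.8, 87.7 and 97.3 in knockout, had the smallest adjusted p of the beta genes, 0.125; it passed as higher only without control replicate 1, with or without trend removal. PCDHB13 and PCDHB4, whose windows both hold the 14-letter string, stood at 105 and 1.90 per kilobase. PCDHB4 had 4 to 12 reads per library and was below the level tested. Whether promoter letters and level are related was not tested.

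The gamma genes each join 1 variable first exon to constant exons that all of them share, so 27.6% to 45.9% of the exonic bases of a gamma gene also belong to another member in GENCODE 29, and how reads there were assigned is not given in the sources used here. Their counts, and differences between them, are uncertain for that reason. PCDHGA1, the first gene of the cluster (chr5:141330571-141512981), was the only gamma gene called. It had 28.0, 51.6 and 37.7 in control and 72.9, 56.7 and 70.7 in knockout, with no overlap. Its log2 fold change was 0.79 (SE 0.29, limma adjusted p = 0.044), and 0.94 after trend removal (SE 0.28, adjusted p = 0.0549). It passed among the leave-one-library-out fits only without control replicate 2 (0.0275; otherwise 0.0714 to 0.152), and edgeR gave 0.0595.

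The dominant gamma gene was PCDHGB2, with 725, 912 and 1120 in control and 812, 812 and 950 in knockout, which overlapped (-0.08, SE 0.14, adjusted p = 0.679). PCDHGC3, a C-type isoform that many cell types express, stood at 426 ± 46.6 and 407 ± 59.3 (adjusted p = 0.731). PCDHGB1 stood at 288 ± 14.2 and 274 ± 35.5, and PCDHGA4 at 165 ± 14.0 and 166 ± 22.9. PCDHGA10 was higher in every knockout library, at 49.6, 50.5 and 43.5 against 56.0, 67.3 and 61.5, without passing (0.36, adjusted p = 0.297). Estimates were above 0 for 9 of the 15 gamma genes tested as deposited and for 13 after trend removal. Both counts include PCDHGA11, with means of 9.15 in control and 14.2 in knockout. It was tested only through its knockout libraries and is no support for a direction. The gamma genes share exons and are not independent of each other. Summed over the 21 genes, counts were 2106 to 2513 in control and 2137 to 2420 in knockout.

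**Figure D4:**
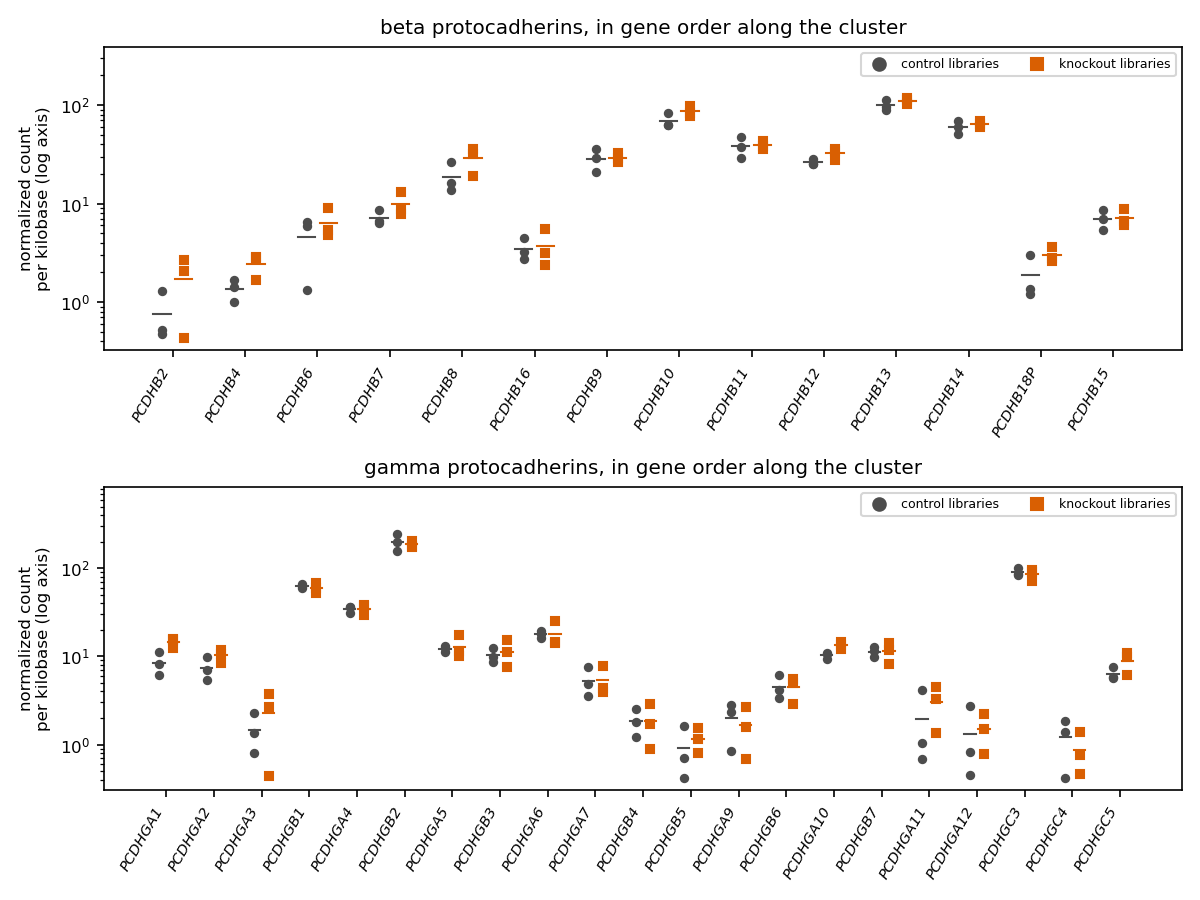
Normalized read count per kilobase (log axis) of the 14 beta and 21 gamma protocadherins in gene order, with control libraries as grey circles, knockout libraries as orange squares and a short line at each group mean. Neighbouring genes differ more than 10-fold in level, as PCDHGB2 and PCDHGA5 do, while of the genes tested only PCDHGA1 and PCDHGA10 have groups that do not overlap.

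GC content moved with the fold changes of these genes too. Across the 50 members tested, Spearman's rho between log2 fold change and GC content was -0.29, and -0.60 across the 32 members with a mean of at least 50. After trend removal these were 0.11 and -0.05. Small values there follow from the procedure, which takes out the relation to GC content (-0.03 over all genes tested). The points share their libraries, so no p is given. The 3 genes called lower had 59.0% to 60.3% GC, and of the 4 called higher PCDH9, PCDH18 and FAT1 had 34.3% to 46.3% and PCDHGA1 54.8%. The part of GC content in these calls was not tested.

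**Figure D5:**
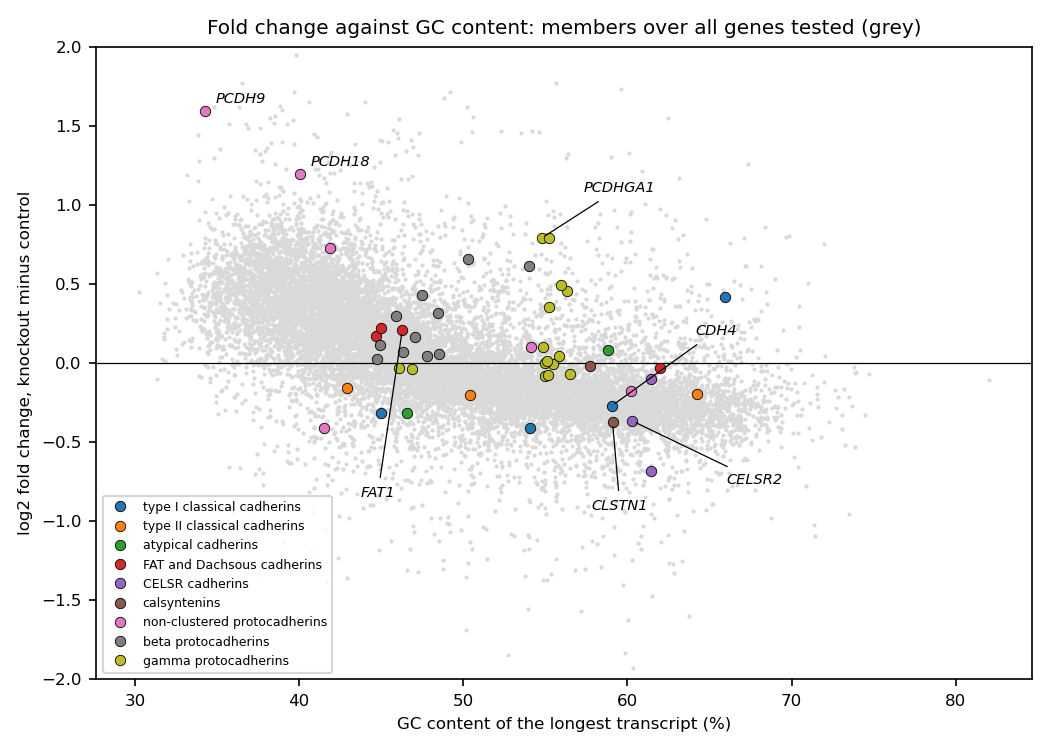
Log2 fold change, knockout minus control, against GC content of the longest transcript (%) for the 50 members (coloured by subfamily, the 7 called genes named) over all genes tested (grey); 8 genes lie outside the plotted range. The grey cloud falls from left to right with rho -0.67, and PCDH9, PCDH18 and PCDHGA1 are the named genes that stand highest, at 1.59, 1.19 and 0.79.

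The partners of the cadherins were read from 5 lists with 86 symbols, of which 73 were tested; 22 were higher and 19 lower in knockout (18.9% and 14.4% of all genes were), and 10 and 6 after trend removal (4.08% and 5.95% of all genes). The shares over all genes apply to each list that follows. Of 21 adherens junction partners, 5 were higher and 6 lower, with a median log2 fold change of 0.08 (all genes 18.9% and 14.4%, median -0.02). After trend removal 1 was higher and 1 lower, with a median of -0.04. CTNNB1, or beta-catenin, went from 21200 ± 1616 to 26961 ± 1354 (0.35, SE 0.08, limma adjusted p = 0.00393), but did not pass after trend removal (0.12, adjusted p = 0.162). CTNNA1, alpha-catenin, was at 38807 and 39027 (0.01, adjusted p = 0.94), and CTNND1, p120-catenin, at 355 and 407 (0.21, adjusted p = 0.32). The transcripts of the catenins were thus abundant for alpha- and beta-catenin in a line where CDH1 had 2 to 7 reads.

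PTPRM, a receptor phosphatase that binds cadherin complexes, was higher in both forms, from 7721 ± 437 to 9830 ± 230 (0.35, limma adjusted p = 0.00286; 0.44 and 0.00137 after trend removal). LIMA1, which links the junction to actin, was higher as deposited (0.49, adjusted p = 0.00113; 0.239 after trend removal). CTNNBIP1, an inhibitor of beta-catenin's transcriptional activity, JUP, or plakoglobin, and AJUBA, a LIM protein of the junction, were lower as deposited (-0.36, -0.41 and -0.28, adjusted p = 0.00404, 0.0108 and 0.0142) and did not pass after trend removal (0.106, 0.2 and 0.0748). The 1 partner called lower only after trend removal was CBLL1, or Hakai, a ubiquitin ligase of E-cadherin (0.08 as deposited, -0.28 with adjusted p = 0.0438 after trend removal).

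Of the 11 sheddases and gamma-secretase subunits, which cut cadherins and protocadherins, 3 were higher and 3 lower (all genes 18.9% and 14.4%), and 2 and 1 after trend removal (all genes 4.08% and 5.95%). ADAM10, the main sheddase of E- and N-cadherin, went from 6986 ± 149 to 10995 ± 623 (0.65, SE 0.08, limma adjusted p = 3.85e-05; 0.19 and 0.037 after trend removal). ADAM9 was also higher (0.65, adjusted p = 3.85e-05; 0.27 and 0.0102 after trend removal). ADAM17 was higher as deposited (0.32, adjusted p = 0.0166), and its estimate turned to -0.11 after trend removal (adjusted p = 0.443). ADAM19 was lower in both forms (-0.49, adjusted p = 0.00089; -0.38 and 0.00826). APH1A and ADAM15 were lower as deposited (-0.28 and -0.29, adjusted p = 0.0124 and 0.0136), not after trend removal (0.306 and 0.473).

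Of 17 listed repressors and activators of classical cadherin genes, 10 were among the rows and 9 were tested; 1 was higher and 1 lower (all genes 18.9% and 14.4%), and 1 and 0 after trend removal (all genes 4.08% and 5.95%). ZEB1, a repressor of CDH1, was higher, from 1240 ± 66.7 to 2135 ± 127 (0.78, limma adjusted p = 3.85e-05; 0.36 and 0.00475 after trend removal). TCF3 was lower as deposited (-0.30, adjusted p = 0.0123; 0.435 after trend removal). The other 7 did not pass.

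Among the 18 regulators of clustered protocadherin chromatin, 10 were higher and 3 lower (all genes 18.9% and 14.4%), with a median log2 fold change of 0.39. After trend removal 4 were higher and 0 lower (all genes 4.08% and 5.95%), with a median of 0.06. NIPBL, which loads cohesin, went from 1923 ± 104 to 3295 ± 160 (0.78, limma adjusted p = 3.85e-05; 0.34 and 0.00449 after trend removal). SMCHD1, a silencer of the clusters, and STAG1, a cohesin subunit, were higher in both forms (0.74 and 0.69 as deposited; 0.29 and 0.31 after trend removal, adjusted p = 0.0193 and 0.0148). PDS5A was the fourth gene that passed after trend removal (0.25, adjusted p = 0.0367). CTCF itself was at 3779 and 3672 (-0.04, adjusted p = 0.742). MAU2, MAZ and DNMT1 were lower as deposited (-0.31, -0.40 and -0.24, adjusted p = 0.0134, 0.022 and 0.0261), and did not pass after trend removal.

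Of the 14 partners of CELSR and FAT cadherins, 3 were higher and 6 lower (all genes 18.9% and 14.4%). After trend removal 2 were higher, FZD6 and PTK7, and 4 lower, SCRIB, DVL2, VANGL1 and LIX1L (all genes 4.08% and 5.95%). FZD6, a frizzled receptor of planar polarity, was higher in both forms (0.63, limma adjusted p = 9.82e-05; 0.23 and 0.0268 after trend removal). FZD3 and ANKRD6 were higher as deposited only (0.69 and 0.50, adjusted p = 0.0137 and 0.01; 0.542 and 0.098 after trend removal). SCRIB, a polarity scaffold, was lower in both (-0.48, adjusted p = 0.000934; -0.27 and 0.00758), as was DVL2, a dishevelled protein (-0.45, adjusted p = 0.00101; -0.22 and 0.0286). FJX1, the kinase-like counterpart of Four-jointed, was lower as deposited (-0.36, adjusted p = 0.00588; 0.182 after trend removal).

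Markers of other cell types were summed in each library. Of 10 fibroblast markers 4 were among the rows, with a summed normalized count of 1732 to 1908 in control and 1012 to 1105 in knockout; PDGFRA, DCN, LUM, FAP, THY1 and POSTN were not among them. Of those 4, 3 were lower in limma as deposited and 1 after trend removal. Over all genes 14.4% were lower as deposited and 5.95% after trend removal, shares that apply to each marker list here. Endothelial markers, 5 of 10 listed, summed to 6057 to 7664 in control and 4873 to 5549 in knockout, without TEK, TIE1, CLDN5, EMCN and ERG; 2 of the 4 tested were lower as deposited and 2 after trend removal. Luminal markers, 7 of 10, summed to 101241 to 112664 and 89057 to 101011, without ESR1, PGR and FOXA1. Of the 7 luminal markers 3 were lower as deposited and 0 after trend removal, and their median log2 fold change went from -0.13 to 0.06. Their part in the differences of CLSTN1, CELSR2, CDH4 and the other called genes was not tested. Every library is labelled as the cultured line MDA-MB-231, so these lists do not measure a tissue mixture. In bulk RNA, fewer cells expressing a gene and less of its RNA per cell cannot be told apart.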

How the data were processed

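RNA was measured in 6 libraries, 3 per group. Per the submitters' processing notes, reads were handled on GRCh38.p13 with DESeq2 1.30.1, featureCounts 1.5.0, STAR 2.4.0 and FastQC. Strand setting, filters and annotation release: not given in the sources used here. Per gene and library the authors deposited a normalized count per library (a signal: reads divided by a size factor), the log2 fold change and its standard error, the Wald statistic (a score), and a p-value and adjusted p-value. Division by a common step gave whole reads for 100% of values within 0.01, 41240265 to 49514464 per library.

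Groups were compared with limma 3.58.1 in R 4.3.3 (two-sided, trended prior variance) on log2(value + 1), 3 libraries against 3. The test covered 14618 genes whose mean reached 10, with Benjamini-Hochberg adjustment over all of them and a threshold of 0.05. Fold changes are on that scale and understate the change of low genes. Trend removal subtracted, per library, fitted natural splines (5 terms each) of GC percent and log2 transcript length (GENCODE 29). It also takes out any difference between the groups that follows GC content or length. Spearman's rho between GC content and a library's deviation from the gene means was 0.32 to 0.65 in control and -0.68 to -0.24 in knockout libraries. The recovered reads were also tested with DESeq2 1.42.0 and edgeR 4.0.16 (quasi-likelihood). Scripts were tested on simulated data.

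The members and all lists were chosen with earlier results of these data known. Named members were those past the threshold, CDH1, CDH2, CDH3, CDH11 and CDH13, and the 6 with the most counts per kilobase; from the partner lists, up to 3 per direction with the smallest adjusted p plus CTNNA1, CTNNB1, CTNND1 and CTCF, and KMT2C. Other genes named with values were chosen after their values were seen. The labels call replicates biological but name no separate cultures, so p-values measure the spread between these samples. The result of 1 further marker list is not reported here.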

Additional observations from a re-analysis of the deposited data

How the results depend on the processing

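Pseudocounts of 0.5 and 5, a filter at a mean of 50 or none, and DESeq2 on recovered reads kept every count of calls within 1.5 times. After trend removal 595 genes were higher and 868 lower, 0 and 2 members, and 10 and 6 partner genes. edgeR and quantile normalization each gave 2 members higher. Leaving out 1 library gave 1587 to 3300 genes higher and 556 to 2868 lower, 0 to 4 and 1 to 4 members, and 15 to 24 and 4 to 21 partners. With trend removal too, a combination added after seeing the data, these were 127 to 1490, 252 to 2110, 0 to 2, 0 to 3, 3 to 18 and 2 to 15. Same-numbered libraries of the groups correlated in their deviations at 0.066, 0.0063 and 0.129, and differently numbered ones at -0.099 to 0.027. The labels do not say whether same-numbered libraries share a culture or batch, and these small correlations cannot decide it. The replicate block gave 3241 and 3024 genes, 3 and 4 members, 23 and 20 partners; with trend removal 540 and 773, 0 and 2, 10 and 6. With the block CDH24 gained a call (adjusted p = 0.0458) and PCDHGA1 lost it (0.0564); with trend removal too, CLSTN1 gained it (0.0447) and CELSR2 lost it (0.0565). The log2 fold change of ADAM17 turned to -0.11 after trend removal, with and without the replicate block (-0.19 to -0.04 leaving out 1 library with the trend removed, 0.27 to 0.40 without trend removal). The cause of these shifts was not tested. Depth limits CDH1, CDH13 and PCDH9, at 22 reads or fewer in each library.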

Other observations

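The desmosomal cadherins lie outside the genes described above. DSG2 and DSC2 were the only desmogleins and desmocollins among the rows, and both were higher in knockout (18.9% of all genes were). The choice to report them was made after their values were seen. DSG2, a desmoglein of simple epithelia, had 2927, 3247 and 2542 in control and 5333, 5630 and 4542 in knockout, with no overlap (log2 fold change 0.83, SE 0.10, limma adjusted p = 4.64e-05; 0.52 and 0.00219 after trend removal). DSC2, a desmocollin that pairs with desmogleins, had 21.5, 19.3 and 32.8 in control and 86.6, 63.8 and 75.2 in knockout (1.601, SE 0.30, limma adjusted p = 0.000974; 1.15 and 0.0364 after trend removal).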
